A study of Mus musculus with 67 samples.

Results

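Rgs5 divided the 45 passage 2 cells of this series, cultured from mouse aorta, into 33 cells with a deposited value of at least 100 (Rgs5-high) and 12 cells below 100 (Rgs5-low), out of 67 cells in all. The groups were chosen by the Rgs5 value itself, so Rgs5 is described here and supports nothing, and the results concern the other genes. Adult male mice of the C57Bl6 strain, 3 to 4 months of age, gave the descending aorta, from which vascular smooth muscle cells (VSMCs), which contract the vessel, were cultured. Growth was in medium holding serum at 10% and antibiotic at 1%; the cells were left for 5 days, detached with trypsin at passage 1 and subcultured to passage 2, and single cells were captured on a microfluidic chip, 1 sequencing library per cell. Both Rgs5 groups share all of this, and the 22 passage 1 cells, which the choice did not use, serve as a second set. The labels name no animal and no culture plate for a cell, so each passage is treated as a single sample, and no p-value or standard error was computed. Every ± below is an SD between cells.

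Rgs5 encodes a regulator of G protein signalling, a protein that speeds up GTP hydrolysis by Gi and Gq alpha subunits and so shortens the response to vasoactive receptors such as those for angiotensin and endothelin. In vessels it is known as a gene of pericytes and of arterial smooth muscle, the mural cells, and its level differs between vascular beds and with growth state. Mural cells in culture are also known to trade contractile proteins for matrix, growth factor and adhesion genes, which is why those groups are described first.

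In Rgs5-high cells the normalized count of Rgs5 ran from 447 (cell 39) through a median of 7036 to 45752 (cell 17), which was 0.0534% to 4.89% of all reads of a cell. In Rgs5-low cells it ran from 5.70 (cell 44) through a median of 22.1 to 48.6 (cell 27), or 6 to 67 reads. No cell lay between 48.6 and 447, so the threshold of 100 fell in a gap, with cell 27 just outside the high group and cell 39 just inside it. Every Rgs5-low cell still had reads of the gene, so "low" does not mean absent.

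**Figure D1:**
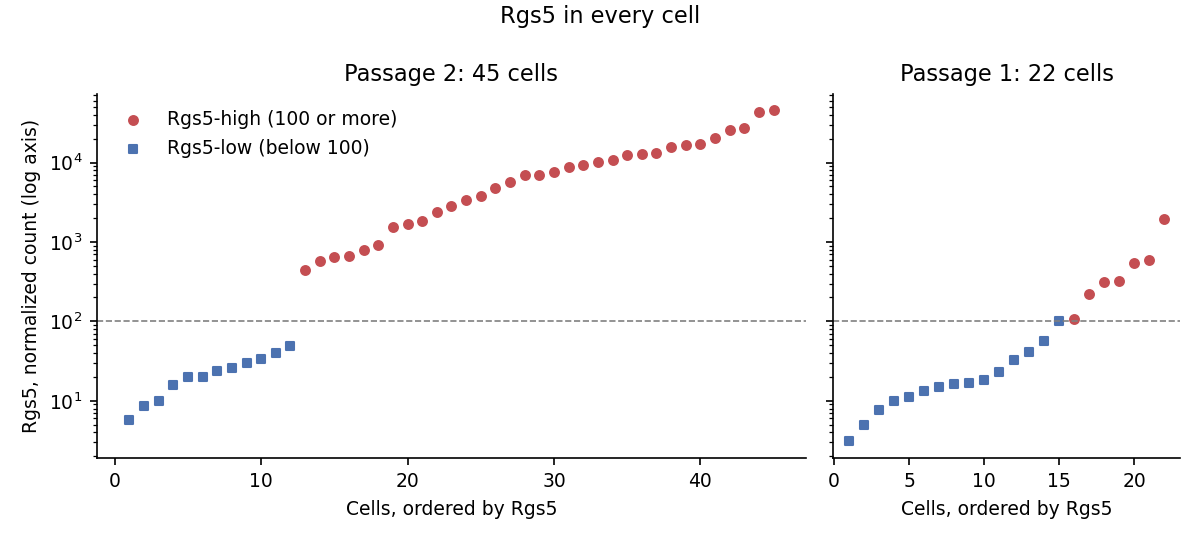
Normalized count of Rgs5 in every cell on a log axis, cells ordered by their value, passage 2 on the left and passage 1 on the right, with the threshold of 100 dashed. At passage 2 no cell lies between 48.6 and 447, and at passage 1 the values pass through the threshold without such a gap.

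The groups were close in depth and differed in the number of genes detected. Reads per cell ran from 548419 to 1509589 (median 871884) in Rgs5-high cells and from 687454 to 1281192 (median 941674) in Rgs5-low cells. Genes with a read ran from 4163 to 8484 (median 7050) and from 6613 to 8731 (median 7718.5), and over the 45 cells the Spearman rho of Rgs5 was -0.44 with genes detected and -0.18 with reads. Smooth muscle markers were present in nearly all cells, at least 3 of 10 reaching 10 in 32 of 33 and 12 of 12 cells, but markers of other cell types stood beside them. The 10 endothelial markers summed to 0 to 16.97 in Rgs5-high cells and 1.88 to 7293 in Rgs5-low cells, and Cldn5 was at 0 throughout. Low cells 8 and 11 went against the VSMC label, with 8 and 7 endothelial markers at 10 (sums of 7293 and 5887) beside 3 and 5 smooth muscle markers (sums of 782 and 875). At least 3 of 10 fibroblast markers reached 10 in 18 of 33 and 1 of 12 cells. Of 7 mesothelial and epithelial markers at least 1 reached 10 in 1 of 33 and 6 of 12 cells, with sums of 0 to 12.6 and 0 to 94.7, and Msln, Krt8, Epcam and Wt1 were at 0 in both groups. Cells with Mki67 or Top2a at 10, taken as cycling, were 6 of 33 and 4 of 12. The part of genes detected, endothelial markers and cycling in the results below was not tested. Without the 2 endothelial marker cells the log2 ratio of Dcn moved from 3.58 to 4.64, that of Fez1 from -5.54 to -4.59, that of Ralgapa2 from -4.79 to -3.21 and that of Jun from 1.32 to 2.59, and the calls of Foxs1, Itga1 and Mef2a ended. Without cycling cells Fez1 moved to -1.90, Nup50 from -3.10 to -1.80, Islr from 6.83 to 7.54, Bicc1 from 4.87 to 6.37, Heyl from 2.90 to 2.17, Itga11 from 4.65 to 3.77 and Dcn to 2.97. The calls of Nup50, Ralgapa2, Zfp770, Rgs4, Col4a2, Ctsd, Gata6, Itga1 and Jun ended there. Without the 25% of cells with the fewest genes Nr2f2 moved from 3.08 to 4.00, Gfra2 from 5.11 to 4.39, Sorbs2 from -3.06 to -2.43 and Fmod from 3.29 to 3.87, and the calls of Foxs1 and Ctsd ended. Myh11, which passed no rule, moved from 0.14 to 1.32.

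Of 7447 genes kept (a mean of at least 10 over the 45 cells and a read in at least 25% of them), 171 (2.3%) were higher in Rgs5-high cells and 262 (3.52%) were lower by 1 rule. The rule asked for a 2-fold ratio of mean values, taken as log2(mean + 1) in high cells minus log2(mean + 1) in low cells, which understates the difference of genes at low values. It also asked that the high cell had the higher value in at least 70% (for lower genes, at most 30%) of the 396 pairs of a high and a low cell. No test stands behind these counts. The median log2 ratio was 2.17 among the higher genes, -1.57 among the lower ones and 0.14 over all kept genes. No kept gene separated the groups completely, and Serpinf1 and Cst3 were the 2 genes above 95% of pairs.

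The promoters of Serpinf1 and Cav1 are shown because these genes came near to separating the groups, in opposite directions. Both windows cover 250 bases before to 50 after the RefSeq start (GRCm38.p6) and are written 5′ to 3′ on the gene's strand. The Serpinf1 window is chr11:75422574-75422873 on the minus strand, with capitals marking AGGTCA on either strand, the half-site read by nuclear receptors of the COUP-TF kind, of which Nr2f2, described below, encodes 1.
Serpinf1: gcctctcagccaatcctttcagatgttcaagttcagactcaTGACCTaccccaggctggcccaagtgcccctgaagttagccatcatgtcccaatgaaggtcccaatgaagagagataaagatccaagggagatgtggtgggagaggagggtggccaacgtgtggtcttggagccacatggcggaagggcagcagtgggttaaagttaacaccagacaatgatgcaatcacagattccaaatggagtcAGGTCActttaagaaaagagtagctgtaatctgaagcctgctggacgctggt
Of 2 Cav1 windows the second, chr6:17307390-17307689, held none of the motifs looked for and is not printed. The first is chr6:17306085-17306384 on the plus strand. Capitals mark TGGGAA, the core read by RBPJ, the DNA-binding factor of Notch signalling, at bases 38 to 43 of the window. They also mark GGGCGG, the SP1 box, on the opposite strand (printed as CCGCCC) at bases 133 to 138 and 249 to 254.
Cav1: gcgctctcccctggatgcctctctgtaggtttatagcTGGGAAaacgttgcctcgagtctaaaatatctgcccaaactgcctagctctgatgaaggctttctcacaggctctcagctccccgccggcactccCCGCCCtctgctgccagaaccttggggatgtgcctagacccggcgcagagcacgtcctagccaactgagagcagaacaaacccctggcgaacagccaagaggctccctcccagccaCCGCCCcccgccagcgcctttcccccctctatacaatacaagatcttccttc
These letters are common: AGGTCA was in 16.3% of the 32851 promoters of the RefSeq table, TGGGAA in 25.6% and GGGCGG in 35.7%. Of the higher genes 115 matched a promoter, and 11.8% of their 152 windows held AGGTCA, against 12.1% of the 7480 windows of kept genes. For TGGGAA the shares were 19.1% in higher genes, 19.9% in the 286 windows of 211 lower genes and 22.1% in kept genes. For GGGCGG they were 55.3% in higher, 62.2% in lower and 65.1% in kept genes. The TEAD motif GGAATG was in 17.1% of windows of higher genes, 13.6% of lower and 11.7% of kept genes, and the CArG box of serum response factor in 1.97%, 1.399% and 1.35%. A match describes letters and not a bound site.

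The 12 highest ratios belonged to genes of several kinds, of which the secreted proteins are described first. Serpinf1 encodes PEDF, a serpin without protease inhibition that is known to restrain vessel growth (ENSMUSG00000000753, GRCm38 chromosome 11, 75409769 to 75422701). It ran from 0.481 through a median of 652 to 1925 in Rgs5-high cells and from 0 through 0.874 to 8.71 in Rgs5-low cells. The high median thus lay far above every low cell, none of which reached 10. It was at 10 or more in 30 of 33 high cells (90.9%) and in 0 of 12 low cells. The means were 645 ± 444 and 1.76 ± 2.60, a log2 ratio of 7.87, and the high cell had more in 95.7% of pairs. Among 20 genes of lymphocytes, red cells and striated muscle, taken as background, the highest share of cells at 10 was 6.06% in high cells and 33.3% (Lck) in low cells.

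Fgf7, keratinocyte growth factor, a mesenchymal ligand for epithelial receptors (chromosome 2, 126034658 to 126091185), ran from 0 through 69.96 to 1551 in high cells, and low cells held at most 0.863. It was on in part of the high cells only, at 10 in 20 of 33. All 12 low cells together held 1 read against 8143 in the high cells, a ratio of 3114 per read sequenced. Its exact 95% interval, 559 to 122995, covers counting error of pooled reads only and not the spread between cells. Islr, a secreted or membrane-bound protein with leucine-rich repeats (chromosome 9, 58156268 to 58204306, overlapping Islr2), had medians of 62.3 and 0, with highest values of 1769.5 and 7.97. Its log2 ratio was 6.83. Thbs2, thrombospondin 2, a matricellular protein that limits vessel growth (chromosome 17, 14665500 to 14694235), had medians of 66.8 and 1.25 and highest values of 1598 and 35.2. Its log2 ratio was 5.24, and 5.85 without low cell 44.

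The abundant secreted genes differed by less and more evenly from cell to cell. Cst3, cystatin C, an inhibitor of cathepsins (chromosome 2, 148871722 to 148875692), ran from 1114 through 3385 to 8706 in high cells and from 384 through 941 to 2099.9 in low cells. The ranges overlapped, with the low cells at the bottom of the high range or below it, at means of 3446 ± 1681 and 1118 ± 675 and a log2 ratio of 1.62. The call of Cst3 ended at both other Rgs5 thresholds, at 0.71 (threshold 10, which leaves 3 low cells) and 0.92 (threshold 1000). Mgp, matrix Gla protein, an inhibitor of vessel calcification (chromosome 6, 136872435 to 136875823), had medians of 4077 and 248. Its means were 4194 ± 2812 and 1161 ± 1860.5, a log2 ratio of 1.85 that rose to 2.50 without low cell 35, the low cell with the highest Mgp at 5780.3. At a threshold of 10 it was 0.90, and the call ended.

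Among the 12 were also receptors and a cadherin. Notch3, the Notch receptor of arterial smooth muscle and pericytes (chromosome 17, 32120820 to 32166852), ran from 0 through 6.02 to 302 in high cells and had no read in any low cell. It was at 10 in 14 of 33 high cells. With 1179 reads against none, and 3 reads over the low cells as the floor, the ratio per read sequenced was 150.3. That value is set by the floor and is not a lower bound. The log2 ratio was 5.26, and 2.24 with a pseudocount of 10. Pdgfra, the PDGF receptor of fibroblasts (chromosome 5, 75152292 to 75198215), had medians of 29.9 and 0.831 and reached 10 in 21 of 33 and 1 of 12 cells, at a log2 ratio of 5.00 (5.68 without low cell 34). Its call ended without the cells with fibroblast markers, among which Pdgfra itself counts. Gfra2, a co-receptor for neurturin (chromosome 14, 70890120 to 70979838), was on in few cells, at 10 in 9 of 33 and 0 of 12. Its 1164 and 3 reads gave a ratio of 148 (50.6 to 720.4, counting error of pooled reads only). Cdh11, a cadherin of mesenchymal cells (chromosome 8, 102632095 to 102785642), had medians of 143 and 2.29, highest values of 1846 and 21.5, and a log2 ratio of 5.87.

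The rest of the 12 highest ratios were a transporter, an enzyme, a noncoding RNA and Mxra7, a matrix-related gene. Slc6a6 encodes the taurine transporter (chromosome 6, 91684053 to 91759066). It ran from 0 through 487 to 3334 in high cells and from 0 through 1.36 to 66.7 in low cells, with 30 of 33 and 5 of 12 cells at 10. Its means were 664 ± 755 and 16.1 ± 22.5, a log2 ratio of 5.28. Gaa, the lysosomal alpha-glucosidase (chromosome 11, 119267887 to 119285454), had medians of 29.7 and 0.328 and a log2 ratio of 5.11 (6.28 without low cell 44). Meg3, an imprinted long noncoding RNA (chromosome 12, 109541001 to 109571726, overlapping the microRNA gene Mir770), had medians of 19.8 and 0 and a log2 ratio of 5.20 (6.41 without low cell 35). Mxra7 (chromosome 11, 116803062 to 116828046), had medians of 3.97 and 0 and reached 10 in 13 of 33 and 0 of 12 cells, with a log2 ratio of 4.91.

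**Figure D2:**
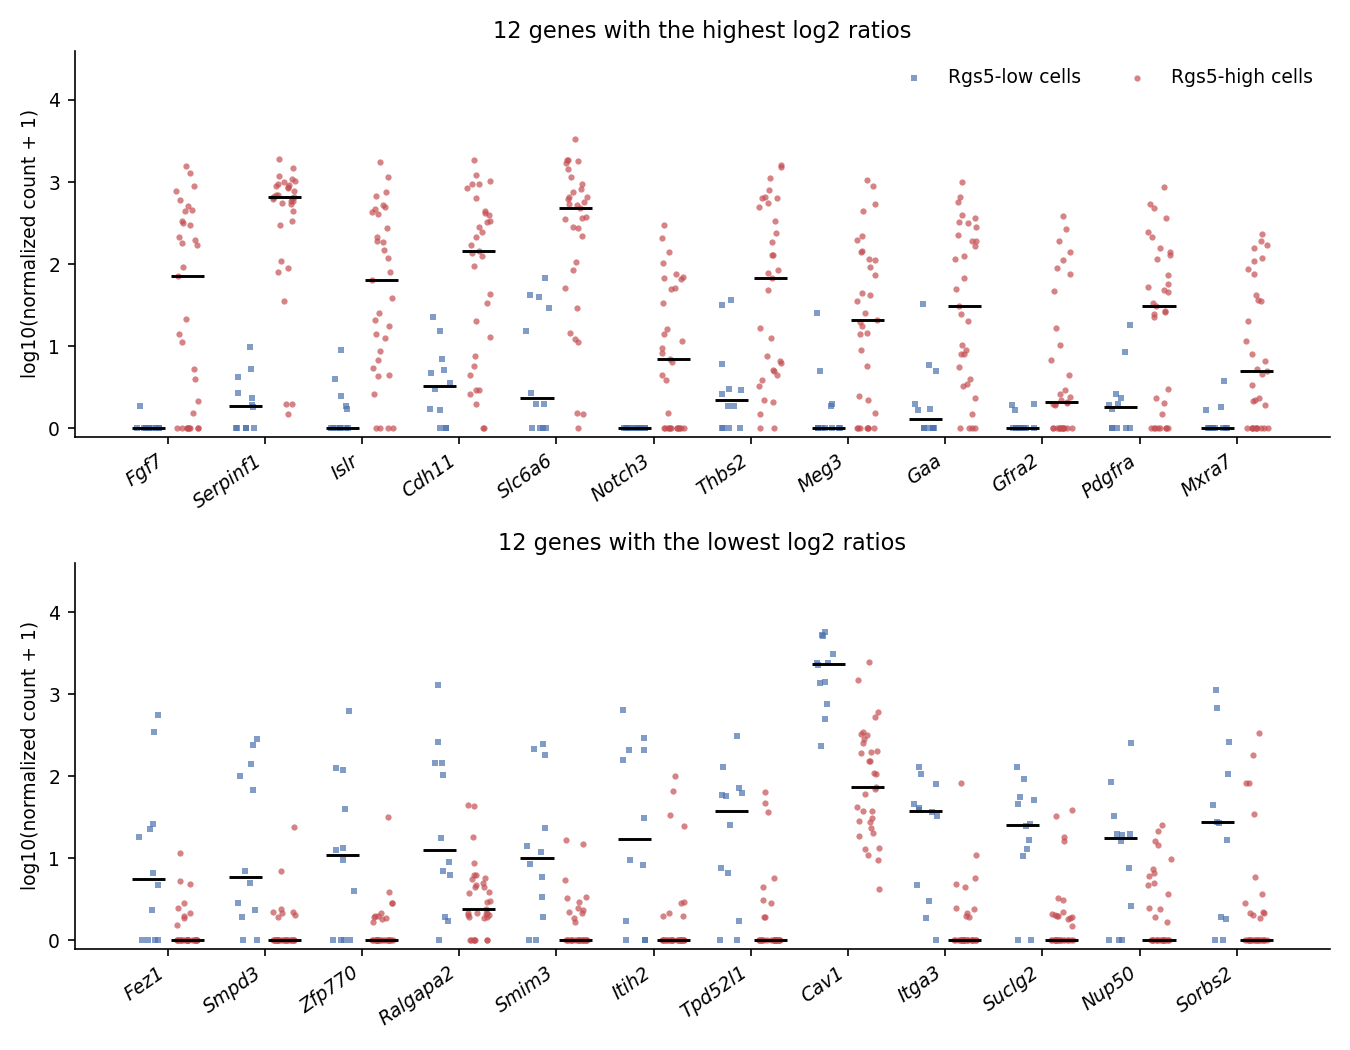
Values of the 12 genes with the highest and the 12 with the lowest log2 ratios as log10(normalized count + 1), 1 point per cell (squares, 12 Rgs5-low cells; circles, 33 Rgs5-high cells), with the median of each group as a bar. Serpinf1 and Cav1 show the least overlap, while Gfra2 and Notch3 are at or near 0 in many high cells.

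Each of these 12 genes was on in part of the high cells, and they were not on in the same ones. A high cell had between 1 and 11 of the 12 at 10 (median 8), a low cell between 0 and 3 (median 1). Across the 33 high cells the median Spearman rho between pairs of the 12 genes was 0.07, against 0.03 for 5747 genes read in at least 50% of cells.

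Cav1 and Cavin2, lower in Rgs5-high cells, are genes of caveolae. Caveolae are flask-shaped pits of the plasma membrane built from caveolins and cavins. Cav1, the structural caveolin (ENSMUSG00000007655, chromosome 6, 17306335 to 17341452), ran from 230.0 through 2309 to 5735 in low cells and from 3.20 through 73.5 to 2451 in high cells. Every low cell was above the high median, and the means were 248 ± 482 in high and 2541 ± 1911 in low cells. The log2 ratio was -3.35, and the high cell had more in 5.56% of pairs. Endothelial cells are known for abundant caveolae. Without the 2 low cells with endothelial markers the ratio was -3.27, without cycling cells -2.78, and at a threshold of 10 it was -1.04.

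Cavin2, a cavin that shapes caveolae (chromosome 1, 51289126 to 51302960), ran from 17.9 through 290.4 to 939 in low cells and from 0 through 2.08 to 632 in high cells. All 12 low cells and 10 of 33 high cells were at 10, and the log2 ratio was -2.72 (-3.41 without high cell 23). Its call ended at a threshold of 10, at -0.24. Cav2, the partner of Cav1, was also lower, at means of 51.2 ± 115 and 382 ± 254 and a log2 ratio of -2.88 (-0.73 at a threshold of 10, where its call ended). The other caveolar genes examined did not pass. Cavin1, needed for any caveola, had means of 1039 ± 658 and 1146 ± 676 (log2 ratio -0.14). Cavin3, Ehd2 and Pacsin2 had log2 ratios of -0.24, -0.30 and -0.62, and none passed the rule. These caveolar genes other than Cav1 and Cavin2 were looked up after the values of those 2 had been seen.

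Several lower genes encode surface or signalling proteins. Tm4sf1, a tetraspanin-like surface protein of endothelial and migrating cells (chromosome 3, 57285611 to 57301988), ran from 1449.8 through 4687 to 8838 in low cells and from 117 through 845 to 5727 in high cells. Its log2 ratio was -1.75, and the high cell had more in 8.84% of pairs. Itga3, the alpha subunit of a laminin-binding integrin (chromosome 11, 95044474 to 95076801), was at 10 in 8 of 12 low and 1 of 33 high cells. The log2 ratio was -3.34, and -4.54 without high cell 4, the 1 high cell at 10 or more. Ece1, which cleaves big endothelin into active endothelin (chromosome 4, 137862237 to 137965229), had medians of 484 and 987 and means of 535 ± 443 and 1213 ± 554, a log2 ratio of -1.18. Efnb2, an ephrin of arterial cells, had means of 139.8 ± 269 and 533 ± 458 (-1.92). Sema3a, a guidance cue, had 9.34 ± 29.2 and 122 ± 140.3 (-3.57, and -4.23 without high cell 43), and its call ended with any of 8 cells left out.

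The remaining lower genes at the end of the range rested on fewer cells. Fez1, Smpd3, Zfp770, Ralgapa2, Smim3 and Itih2, at log2 ratios from -5.54 to -4.04, were at 10 in 5 or 6 of 12 low cells and in 1 to 4 of 33 high cells. Fez1 is an adaptor of axonal transport, Smpd3 a neutral sphingomyelinase, and Itih2 a heavy chain that binds hyaluronan. Single low cells carried much of some means: Fez1 fell to -4.46 without cell 8, Zfp770 to -3.68 without cell 44, Ralgapa2 to -3.40 without cell 11 and Itih2 to -3.41 without cell 35. In the other direction Zfp770 stood at -5.81 without high cell 10 and Itih2 at -4.70 without high cell 33. Suclg2, a subunit of succinate-CoA ligase (chromosome 6, 95473009 to 95718800), was broader, at 10 in 9 of 12 and 4 of 33 cells with medians of 24.7 and 0. Tpd52l1, Nup50 and Sorbs2, an adaptor of stress fibres, had log2 ratios of -3.39, -3.10 and -3.06, and without a single low cell (34, 45 and 16) -2.73, -2.06 and -2.21. Sorbs2 stood at -3.85 without high cell 23. The 24 genes at the ends of the range were chosen for an unchanged sign whichever cell was left out. All 24 passed the rule with any 1 cell left out, but not at other thresholds. At 10 the rule was passed by 10 of the 12 highest and 5 of the 12 lowest genes, and at 1000 by 8 and 7. Without cycling cells 12 and 9 passed.

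Genes were also ranked by likeness to Rgs5. The measure was the Spearman rho with Rgs5, over all 45 cells and over the 33 high cells alone. These are descriptions of cells that share 1 source, and their relation to genes detected is given below. The 8 highest were Slc6a6 (0.71), Nr2f2 (0.68), Bicc1 (0.68), Sept11 (0.67), Fabp5 (0.64), Serpinf1 (0.62), Lxn (0.60) and Cst3 (0.59). Of all kept genes 26 reached 0.5 and 16 reached -0.5. Within the high cells the first 5 and Lxn kept a rho of 0.53, 0.52, 0.45, 0.46, 0.48 and 0.50, and Serpinf1 and Cst3 had 0.14 and 0.18, Fgf7 0.09 and Islr -0.05. The 8 were picked for their rho over cells that include these 33, so the values within the high cells describe the same choice and do not support it. Of all 7447 kept genes 112 had a rho of at least 0.4 within the high cells, and 13 of these were among the 171 higher genes, whose median was 0.09 against 0.01 for all kept genes.

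The top of the ranking holds a transcription factor and a fatty acid carrier. Nr2f2, COUP-TFII, a nuclear receptor of venous and mesenchymal identity (chromosome 7, 70351944 to 70366735), ran from 0 through 164 to 1574 in high cells and from 0.9501 through 11.7 to 182 in low cells. The ranges overlapped, at a log2 ratio of 3.08 (3.75 without low cell 3). Fabp5, a fatty acid carrier (chromosome 3, 10012548 to 10016607), had medians of 69.02 and 1.41 and a log2 ratio of 4.04. Bicc1, an RNA-binding protein (chromosome 10, 70922832 to 71159700), had medians of 73.6 and 0 and a log2 ratio of 4.87 (5.65 without low cell 45). Sept11, a septin of the cytoskeleton (chromosome 5, 93093437 to 93176447), was abundant in every high cell, from 547 through 3461 to 9627, with 13.02 through 478 to 4725 in low cells, at a log2 ratio of 1.90. Lxn, latexin, an inhibitor of carboxypeptidases (chromosome 3, 67457998 to 67463926, overlapping Gfm1), had medians of 491 and 174 and a log2 ratio of 1.41.

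At the other end of the ranking stood Ece1 (-0.62), Dhps (-0.58), Tpd52l1 (-0.58), Cavin2 (-0.58), Tm4sf1 (-0.56), Zdhhc2 (-0.55), Ythdf1 (-0.54) and Suclg2 (-0.54). Ece1 also fell with Rgs5 within the high cells (rho -0.36), as did Zdhhc2 (-0.38) and Ythdf1 (-0.45, not past the rule at a log2 ratio of -0.81), while Cav1 did not (-0.52 over 45 cells and 0.01 within the high cells). With genes detected, Cav1 had a rho of 0.60 over 45 cells and 0.40 within the high cells, and Zdhhc2 0.57 and 0.49. For Slc6a6 and Nr2f2 the rho with genes detected was -0.24 and -0.19, and -0.06 and 0.17 within the high cells. What part genes detected have in these ranks was not tested.

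**Figure D3:**
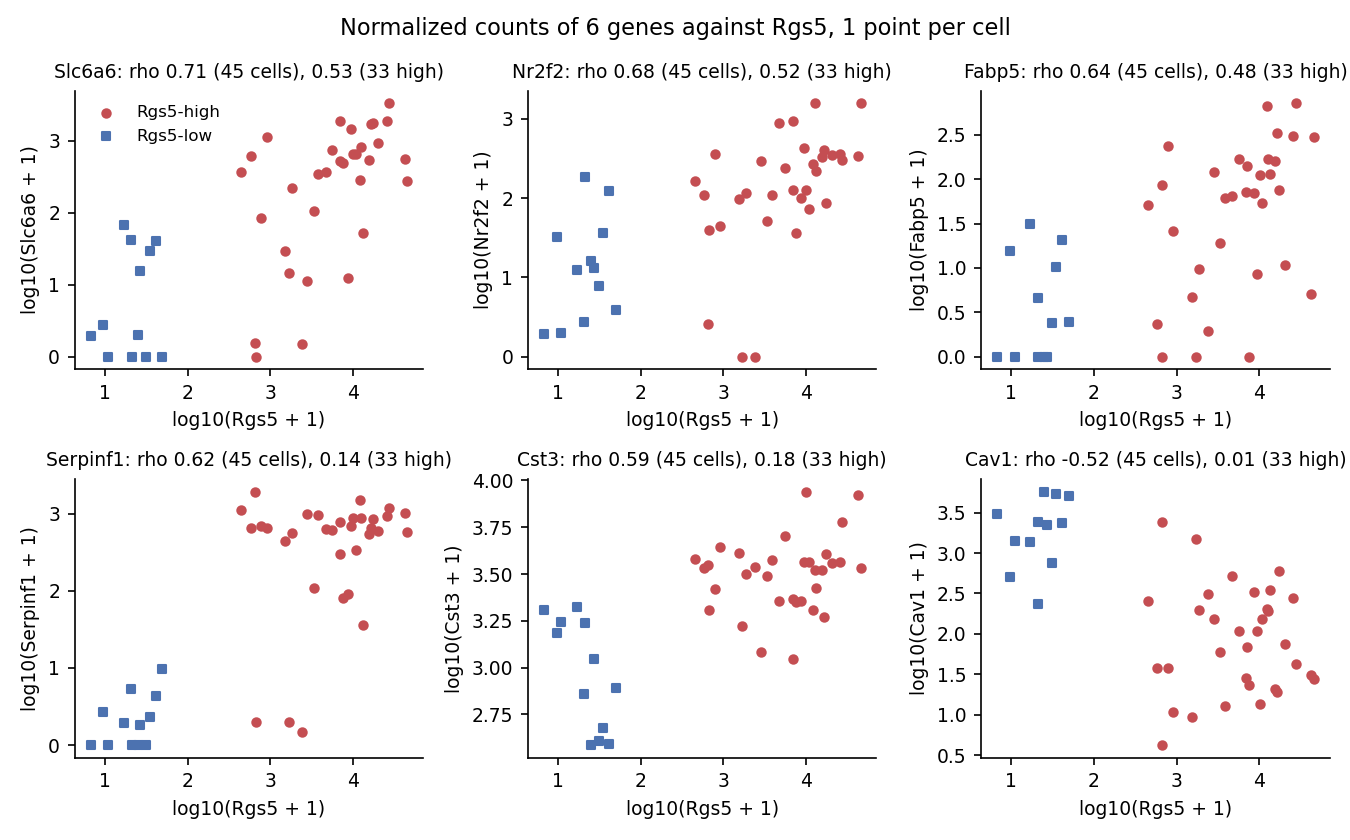
Each of 6 genes against Rgs5, both as log10(normalized count + 1), 1 point per passage 2 cell (squares, Rgs5-low; circles, Rgs5-high), with the Spearman rho over 45 and over 33 cells in each title. Within the high cells the rho is 0.53 for Slc6a6, 0.52 for Nr2f2 and 0.48 for Fabp5, against 0.14 for Serpinf1, 0.18 for Cst3 and 0.01 for Cav1.

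Of the 33 high cells, 3 had Serpinf1 below 10, a split noticed after the values were seen. Cell 37 (Rgs5 667) had 0.971 of Serpinf1, cell 23 (Rgs5 1693) 0.968 and cell 15 (Rgs5 2394) 0.481. Cells 37 and 23 were also the high cells with the most Cav1, at 2451 and 1471, within the range of the low cells. Cell 15 held 314 of Cav1 and had 4754 genes detected, 1 of 2 cells under 5000. In contrast the high cells with the least Rgs5, cell 39 (447) and cell 38 (581), had 11 and 9 of the 12 highest genes at 10. Raising the threshold to 1000 moved 6 cells, with Rgs5 from 447 to 906, to the low side, and the log2 ratio of Serpinf1 became 1.10, that of Islr 0.10 and that of Meg3 -0.42, while that of Slc6a6 went from 5.28 to 2.44 and that of Cav1 from -3.35 to -3.21.

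No contractile gene passed the rule. Of 24 members 16 were kept, and none was called in either direction (background 2.3% higher and 3.52% lower). At those shares a list of 16 can hold no call, so the count says little about contractile genes. Above 0 were 14 of the 16, beside 4207 of 7447 kept genes. The median log2 ratio was 0.56, against 0.14 over all kept genes (0.42 against 0.01 with scaling by all reads). Acta2, smooth muscle alpha-actin, ran from 153 through 2905 to 17576 in high cells and from 350.2 through 2093 to 6756 in low cells, a log2 ratio of 0.73 with the high cell above in 63.6% of pairs. Tagln, an actin-bundling protein, was at 0.71, and Cald1, caldesmon, at 0.97. Myh11, the smooth muscle myosin heavy chain, was at 0.14 with 13 of 33 and 5 of 12 cells at 10, and Cnn1, calponin, at 0.52, and each changed sign with 1 cell left out (high cell 38, to -0.49 and -0.52). With the threshold at 1000 the list's median was -0.02, and without the cells with at least 3 fibroblast markers it was 0.89 with 4 members past the rule.

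Mural genes split. Of 12 kept members of the pericyte and mural list (22 in the table), 5 (41.7%, background 2.3%) were higher and none lower, with a median log2 ratio of 0.45. That median depends on the summary, at -0.50 with medians over cells (all genes -0.30) and -0.64 with means of log2 values (all genes -0.26), since members lay far apart. It was -0.01 without high cell 43. The 5 were Notch3, Pdgfrb, Ebf1, Foxs1 and Heyl. With the threshold at 10 there were 3 higher and 2 lower members, and at 1000 there were 3 higher. Ebf1 and Heyl passed at neither (0.93 and 0.59 at 10, at 47.6% and 41.3% of pairs), and Pdgfrb did not pass at 10. Pdgfrb, the PDGF receptor of mural cells, ran from 2.13 through 310.3 to 1324 in high cells and from 0 through 67.7 to 552 in low cells, a log2 ratio of 1.56. Ebf1 and Foxs1, transcription factors of pericytes, had log2 ratios of 2.81 (3.63 without low cell 44) and 2.46. The call of Foxs1 ended without any 1 of low cells 8, 11, 16, 34 and 45.

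The ATP-sensitive potassium channel of pericytes went the other way without passing the pair rule. Kcnj8, its pore, had means of 0.418 ± 1.04 in high and 67.03 ± 107 in low cells, with 0 of 33 and 4 of 12 cells at 10. Abcc9, its regulatory subunit, had means of 8.31 ± 23.7 and 142 ± 263, with 4 and 5 cells at 10. Their log2 ratios were -5.58 and -3.94 at 32.1% and 32.7% of pairs, so few low cells carried them. Without the 2 cells with endothelial markers 4 members were higher, Foxs1 no longer, and 3 were lower, Kcnj8, Abcc9 and Cspg4 at 26.4%, 26.7% and 28.3% of pairs. Cspg4, the NG2 proteoglycan, and Mcam were at -0.90 and -0.82. Higd1b, a gene of brain pericytes, was at 0 in every cell. Other RGS genes also differed in direction: Rgs4 reached 10 in 13 of 33 and 0 of 12 cells (log2 ratio 6.41, 71.97% of pairs), and Rgs2, below the filter, in 2 and 6 (-4.06, 28.5%). Rgs16 had no read.

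Among 10 kept Notch genes 3 were higher and 1 lower (30% and 10%, background 2.3% and 3.52%). Jag1, the ligand, had means of 2240.2 ± 1631 and 897 ± 773 (log2 ratio 1.32), Notch3 is given above, and Heyl, a target gene, had means of 233 ± 299 and 30.3 ± 100.3 (2.90, and 6.60 without low cell 44). Rbpj, the DNA-binding factor, was lower at 51.7 ± 78.3 and 127 ± 94.8 (-1.28), present in every low cell at 10 or more. With the threshold at 1000, 1 Notch gene was higher and none lower, and at 10 there were 2 and 1. In the PDGF list of 6 kept genes the 2 receptors were higher by the rule (33.3%, background 2.3%). Among 12 kept vasoactive receptors 1 was higher (8.33%, background 2.3%), Lpar1, a lysophosphatidic acid receptor (4.56, and 5.92 without low cell 41). Among 13 G protein subunits and 21 genes of calcium handling none passed in either direction (background 2.3% and 3.52%). Lists of this size can hold no call at those shares.

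Transcription factors of the mural lineage had 16 kept members with a median of 1.16. Of these 2 were higher (12.5%, background 2.3%), Nr2f2 and the mesenchymal Prrx1 (2.41). Another 2 were lower (12.5%, background 3.52%), Gata6 and Mef2a (-1.23 and -1.21). The calls of Gata6 and Mef2a ended without low cells 45 and 11, at -0.89 and -0.94. Both calls also ended at a threshold of 1000 (-0.95 and -0.78). At a threshold of 10 Mef2a turned to 1.42, at 57.1% of pairs. Meis1 was at -2.66 without passing the pair rule, on 7 cells at 10 in each group.

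Small leucine-rich proteoglycans, which bind collagen and growth factors, were higher in part. Of 8 kept members 3 were higher (37.5%, background 2.3%), none lower, and the median log2 ratio was 1.72. It stood at 0.96 with the threshold at 10 and 0.44 at 1000. Dcn, decorin, ran from 0 through 84.5 to 1772 in high cells and from 0 through 0.363 to 185 in low cells (3.58, and 4.76 without low cell 11). Fmod and Prelp had log2 ratios of 3.29 and 2.50 (3.49 without low cell 34). Without cells with fibroblast markers, among which Dcn and Lum themselves count, 1 of the 8 passed. Bgn, biglycan, at means of 4402 ± 1550.3 and 2298 ± 1315, missed the fold at 0.94 with 86.4% of pairs. Lum, lumican, was on in 11 of 33 high and no low cell at 10, a ratio of 7.27 at 66.9% of pairs, and Ogn differed little (-0.18).

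Of 36 kept collagen and matrix genes 6 were higher (16.7%, background 2.3%) and none lower, at a median of 0.29. They were Mgp, Thbs2, Col14a1 (2.73), the basement membrane collagens Col4a1 (1.12) and Col4a2 (1.09) and the laminin subunit Lamb2 (1.28). Col14a1 stood at 3.46 without low cell 27, and the calls of Col4a1 and Col4a2 ended with any of 2 and 12 cells left out. With scaling by all reads 4 of the 6 passed, and with the threshold at 1000 the list's median was -0.03. Col1a1, the fibrillar collagen, had means of 573 ± 443 and 484 ± 344 (0.24), and Fn1, fibronectin, 4039 ± 2053 and 5584 ± 2501 (-0.47, 30.1% of pairs). The protease list had 4 of 22 higher (18.2%, background 2.3%), Serpinf1, Cst3, Ctsd and Mmp14. The adhesion list had 3 of 16 higher (18.75%), Cdh11, Itga1 and Itga11, and 1 lower (6.25%, background 3.52%), Itga3. Ctsd and Itga1 lay near the pair limit of 70%, and their calls ended with any of 25 and 5 cells left out. Of the matrix, protease and adhesion genes named here, the calls of Prelp, Col4a1, Lamb2, Ctsd, Itga1 and Itga11 ended at thresholds of both 10 and 1000. Those of Fmod and Itga3 ended at 10 alone, and those of Col4a2 and Mmp14 at 1000 alone.

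Immediate early genes had 19 kept members with a median of 0.76. Of these 2 were higher and 1 lower (10.5% and 5.26%, background 2.3% and 3.52%). They were Egr1, Jun and Atf3, and the call of Jun ended with any of 8 cells left out. Egr1 had means of 2791 ± 1945 and 1206 ± 756 (1.21), and Atf3, a stress factor, 70.3 ± 152 and 269.5 ± 309 (-1.92, 17.4% of pairs). Of 11 kept inflammatory genes 1 passed (9.09%, background 2.3%). It was Ccl2, at means of 476 ± 764 and 59.2 ± 154 (2.99, and 4.70 without low cell 35). Il6 reached 10 in 12 of 33 and 1 of 12 cells (5.23, 64.9% of pairs). Igfbp4 was higher (4.37, and 5.11 without low cell 3) and Igfbp2 lower (-2.19, and -1.10 without low cell 3). Cell cycle lists had medians of -1.13 (S phase, 11 kept) and -0.88 (G2 and M phase, 11 kept). In each list 1 member was lower (9.09%, background 3.52%) and none higher. The 2 medians turned to 2.68 and 3.69 at a threshold of 10, which leaves 3 low cells. At 1000 they were -1.22 and -2.79. Without the cycling cells the S phase median was 0.16 (7 kept), and the 1 kept G2 and M gene was at 0.05. Mki67 and Top2a, which define cycling cells here, belong to the G2 and M list, so its change was in part set by that choice. All 22 cytosolic ribosomal protein genes were below 0, from -0.44 to -0.01 with a median of -0.28. None passed the rule (background 2.3% and 3.52%), which a list of this size can show at those shares.

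**Figure D4:**
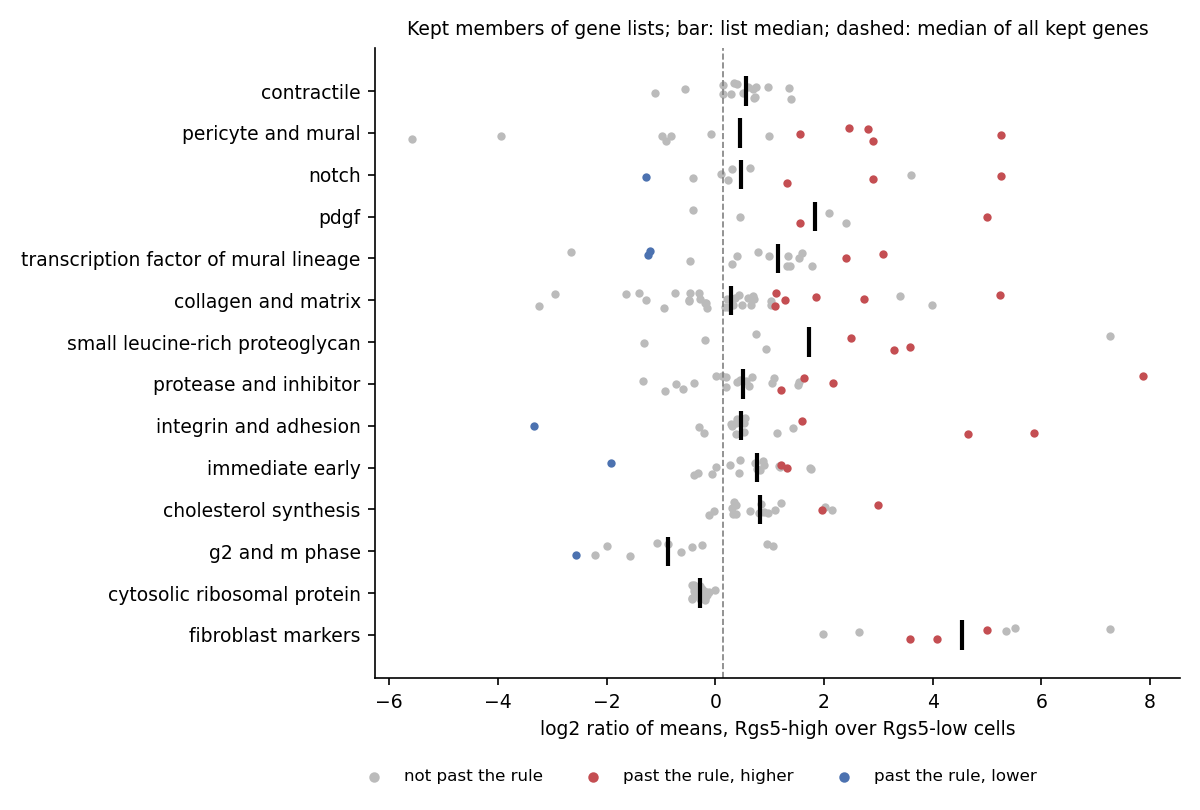
Log2 ratio (Rgs5-high over Rgs5-low) of each kept member of 14 lists, 1 point per gene, coloured where the gene passed the rule, with the list median as a bar and the median of all 7447 kept genes (0.14) dashed. The contractile and ribosomal members sit close together, and the pericyte and mural members range from Kcnj8 at -5.58 to Notch3 at 5.26.

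Fibroblast markers moved with the groups at passage 2. The 10 markers summed to between 20.3 and 4678 (median 951) in high cells and between 2.42 and 596 (median 23.4) in low cells, and 18 of 33 and 1 of 12 cells (low cell 35) had at least 3 of them at 10. Of 8 kept markers all were above 0 and 3 passed the rule (37.5%, background 2.3%), Pdgfra, Dcn and Smoc2. Clec3b was at 0 in every cell and Dpt in every low cell. Without those 19 cells, 15 high and 11 low cells were left, and 197 genes were higher and 447 lower, of which 111 and 182 were among the 171 and 262. All 12 highest and 12 lowest genes, chosen on values that include these cells, kept their direction there and 11 and 12 passed the rule. Log2 ratios were 7.43 for Serpinf1, 5.49 for Slc6a6 and -2.74 for Cav1. Dcn was at 1.17, but it is itself 1 of the 10 markers by which those cells were left out. The pericyte markers summed to 17.6 to 1336 and 16.5 to 1236 (medians 523 and 451). At least 3 of them were at 10 in 16 of 33 high (48.5%) and 9 of 12 low cells (75%). Of 10 macrophage markers at least 1 reached 10 in 7 of 33 and 3 of 12 cells, with sums of 0 to 295 and 0 to 51.1. Adgre1, Ptprc, Fcgr1, Mrc1, Cd14, C1qa and C1qb were at 0 in both groups.

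At passage 1, which the choice of groups did not use, the same threshold put 7 of 22 cells above 100 (107 to 1941) and 15 below (3.10 to 99.97). The high cells there were thus far below those of passage 2. Of the 171 higher genes 152 were kept at passage 1, and 91 of them (59.9%) were above 0 there, against 46.8% of all 6615 genes kept in both. Of 245 lower genes 147 (60%) were below 0, against 53.2%. Past the same rule in the same direction were 14 higher and 9 lower genes, beside 5.43% and 2.37% of all genes kept in both.

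The named genes followed at passage 1 in part. Of the 12 highest 9 had the same direction and 10 were kept there, all but Notch3 and Gfra2. Serpinf1 had the same direction, with means of 181 ± 60.7 and 108 ± 190 (log2 ratio 0.74, 79.05% of pairs) and Slc6a6 with 220 ± 138 and 114 ± 121 (0.94). Fgf7, Pdgfra and Gfra2 did not (-0.37, -0.34 and -1.63). Of the 12 lowest 11 kept their direction, all but Suclg2 (0.70). Cav1 had means of 858 ± 804 and 2218 ± 2101 (-1.37, 30.5% of pairs) and Cavin2 67.2 ± 80.1 and 288 ± 345 (-2.08, 30.5%). The difference between passages was not tested. A passage 1 cell had 5 to 10 of the 12 highest genes at 10 in the high group and 0 to 9 in the low group. The contractile median was -0.58 there, that of the fibroblast markers -0.29 and that of the PDGF list -0.54. The pericyte and mural, Notch and small leucine-rich proteoglycan lists had medians of 0.56, 0.55 and 0.45. All genes kept at passage 2 had a median of -0.05.

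**Figure D5:**
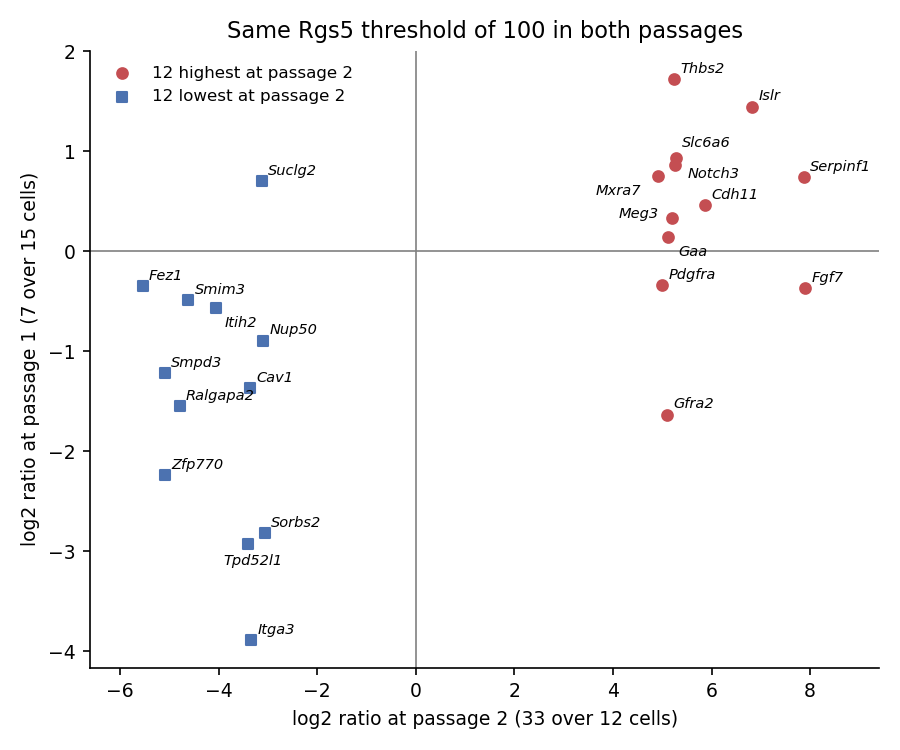
Log2 ratio at passage 1 (7 cells at 100 or more over 15 below) against that at passage 2 (33 over 12 cells) for the 24 genes with the highest and lowest ratios at passage 2, 1 labelled point per gene. Of the circles 9 of 12 lie above 0 and of the squares 11 of 12 below 0 on the passage 1 axis, all of the circles at smaller values than at passage 2.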

How the data were processed

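The deposited table holds a signal value per gene and cell: reads per gene after the authors' scaling with a factor for each cell. BWA, SAMtools, HTSeq, DESeq and the GRCm38 build are named, without versions, in the submitters' processing notes, and the deposited values carry whatever handling of strand and multi-mapping reads was used, which is not given in the sources used here. Since the smallest value of a cell is worth 1 read, division by it recovered reads. Of 509576 nonzero values 100% came out whole, to a tolerance of 0.001. A count test on these reads was not run because cells are not replicates and no label ties a cell to an animal or dish. Of 39179 gene rows 37607 had a symbol in a table of gene names, and positions are from GENCODE M21. Genes that overlap others or have near copies (Islr, Fgf7, Meg3, Lxn, Acta2) are uncertain.

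Cells are numbered in the order of their records. Ties count as 50% of a pair in pair shares. Kept genes held 96.2% of reads. The text names, by log2 ratio, the top 12 and bottom 12 genes that met 3 conditions: reads in 50% or more of the cells in the group with the larger mean, a pair share of 75% or more in its favour, and no change of sign on leaving out any cell. They were joined by the 8 highest and 8 lowest rho, set members of each list and, chosen after their values were seen, list members that passed the rule and the caveolar genes. The members and lists were chosen with earlier results of these data known. Alternatives were thresholds of 10 and 1000, scaling by all reads, pseudocounts of 0.1 and 10, other filters, medians or mean logs over cells, thinning to 500000 reads, and left-out cells. No doublet caller was run on 45 cells. Intervals are exact (Clopper-Pearson) and are given for ratios of pooled reads alone. They cover counting error only, and reads carry no molecular identifiers. The ratio and pair functions were tested on simulated data. The software was matplotlib 3.10.9, scipy 1.17.1, pandas 2.3.3 and numpy 2.4.6 under Python 3.11.15.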

Additional observations from a re-analysis of the deposited data

How the results depend on the processing

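The counts of 171 higher and 262 lower genes were 1032 and 560 at an Rgs5 threshold of 10, which left 3 low cells, and 107 and 98 at 1000. The lower count became 96 on stricter filtering, 402 using medians over cells, 410 with means of log2 values and 447 without fibroblast marker cells, an alternative chosen after seeing the data. The higher count was 264 on leaving out the 25% of cells with fewest genes, and 275 on leaving out cycling cells. With scaling by all reads the counts were 149 and 335, the median of all genes moved from 0.14 to 0.01 and the share of higher genes among calls from 39.5% to 30.8%. It was 64.8% and 52.2% at thresholds of 10 and 1000 and 57.1% with the stricter filter. The median of the small leucine-rich proteoglycan list was 0.96 and 0.44 at thresholds of 10 and 1000, 2.47 with no filter and 2.78 with medians. That of the pericyte and mural list was 2.01 with the stricter filter, 1.24 without the cells with the fewest genes, -0.50 with medians and -0.64 with means of log2 values. Smpd3 turned to 2.22 and Mef2a to 1.42 at a threshold of 10, and Meg3 to -0.42 at 1000. With each cell left out in turn, the medians ran from 0.28 to 1.06 for the Notch list (main 0.48), from -0.01 to 0.84 for the pericyte and mural list and from 1.60 to 2.24 for the proteoglycan list. The cause of these shifts was not tested. All 12 highest and all 12 lowest genes kept their direction under the other 13 settings. The pseudocounts and filters among these cannot change a direction. The genes were also chosen on these cells for an unchanged sign with any cell left out. Their kept direction thus describes the choice and does not support it. No paired analysis was possible because the cells carry no shared numbers and no test was run.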
